A study of Caenorhabditis elegans with 2 samples.

Results

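The heterochronic microRNA genes of Caenorhabditis elegans, lin-4, let-7, mir-48, mir-84 and mir-241, were examined for binding by NHR-23. They were taken by symbol from the Ensembl gene models, and they are 5 of the 261 genes annotated with biotype miRNA; the other 256 served for comparison. Chromatin immunoprecipitation followed by sequencing (ChIP-seq), which recovers DNA fragments attached to a protein, was directed at eGFP-tagged NHR-23 in L3 larvae of strain OP43. The strain carries unc-119(ed3) on chromosome III and wgIs43, an insertion listed for nhr-23. The site of this insertion in the genome was not determined here. Whole animals of pooled male and female sex were used, so cell types are mixed, and binding in few cells cannot be told apart from weak binding in many. The labels give 2 biological replicates of 1 group; a control is named there and was not analysed here, so no test between groups was possible.

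The heterochronic pathway sets the order in which larval cells adopt the fates of successive stages. Its microRNAs act by pairing their seed, a short stretch near the 5′ end, with messages that they repress: lin-4 represses lin-14 and lin-28, mir-48, mir-84 and mir-241 act together on hbl-1, and let-7 represses lin-41 late in larval life. NHR-23, a nuclear receptor related to mammalian ROR, is needed for molting, and work outside these data has placed it among the regulators of lin-4 and let-7 transcription. ROR receptors recognise a hexamer of the form AGGTCA or GGGTCA.

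The mature microRNAs are given first because their seeds sort the 5 genes into families. Each is written 5′ to 3′ from the RefSeq annotation of WBcel235, the assembly also called ce11, with the seed, bases 2 to 8, in capitals.
lin-4: uCCCUGAGaccucaaguguga
let-7: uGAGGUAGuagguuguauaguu
mir-48: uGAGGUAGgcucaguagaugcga
mir-84: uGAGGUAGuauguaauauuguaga
mir-241: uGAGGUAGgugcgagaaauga
All 5 come from the 5′ arm of their hairpin and run over 21 to 24 bases. let-7, mir-48, mir-84 and mir-241 have the same seed, GAGGUAG, while lin-4 has the seed CCCUGAG. Beyond the seed the let-7 relatives diverge: aligned without gaps, mir-84 has the base of let-7 at 9 of 14 positions after the seed, mir-241 at 4 of 13 and mir-48 at 1 of 14.

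The peak summits, the points of highest signal within each peak, lie in the DNA around the hairpins. The following stretches are centred on 5 of the 11 thresholded summits found within 5 kb of these genes and are written 5′ to 3′ along the direction of the gene's transcription, from the same RefSeq assembly. They are the summits near let-7, mir-241 and mir-84 that hold a nuclear receptor hexamer, the strongest summit of the mir-48 and mir-241 locus, which holds none, and the strongest summit of lin-4.
let-7, 1169 bp upstream (chrX:14745390-14745490, minus strand): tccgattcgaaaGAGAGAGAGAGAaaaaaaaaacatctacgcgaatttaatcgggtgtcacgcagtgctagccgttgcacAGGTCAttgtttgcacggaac
mir-241, 1032 bp upstream (chrV:14367265-14367365, minus strand): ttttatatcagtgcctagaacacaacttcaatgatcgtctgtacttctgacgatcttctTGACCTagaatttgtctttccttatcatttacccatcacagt
mir-84, 555 bp upstream (chrX:16022983-16023083, minus strand): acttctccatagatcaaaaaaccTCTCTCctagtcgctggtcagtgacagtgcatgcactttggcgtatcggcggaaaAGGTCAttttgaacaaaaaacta
mir-241, 444 bp upstream (chrV:14366677-14366777, minus strand): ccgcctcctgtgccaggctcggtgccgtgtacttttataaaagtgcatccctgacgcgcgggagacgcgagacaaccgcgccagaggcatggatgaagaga
lin-4, 2997 bp upstream (chrII:5899157-5899357, plus strand): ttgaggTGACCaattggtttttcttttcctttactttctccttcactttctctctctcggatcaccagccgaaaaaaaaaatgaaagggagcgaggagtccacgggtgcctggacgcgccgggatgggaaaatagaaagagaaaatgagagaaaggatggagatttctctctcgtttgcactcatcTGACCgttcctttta
In the first 4, capitals mark AGGTCA or GGGTCA and GAGAGA on either strand, so TGACCT and TCTCTC are the same strings read from the other strand. In the lin-4 stretch, which is longer, capitals mark TGACC, the other strand of the shorter core GGTCA.

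Every one of the 5 genes had at least 2 thresholded NHR-23 summits within 5 kb of its hairpin, the annotated stretch that folds around the mature microRNA. Among the 256 other miRNA genes, 117 (45.7%) had at least 1 summit in that window and 59 (23%) had 2 or more. The 5 windows held 11 distinct summits, and the 4 summits near mir-48 were also the 4 near mir-241. At the average density of 49.3 thresholded summits per Mb, a window of this size would hold 0.498 summits. Distances are to the nearest base of the hairpin, positions are counted from its 5′ end along transcription, and coordinates are ce11.

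The authors' thresholded list holds 4944 peaks, which are the 4944 strongest of the 30000 peaks they called on the pooled replicates. Every peak has a signal, a height on the scale of the authors' peak caller, which ranged between 34.2 and 967.1 in the thresholded list with a median of 60.4. Signal was used only to order peaks within a list, with rank 1 the strongest. The replicates' own lists, called permissively, hold 30000 peaks for replicate 1 and 27191 for replicate 2. No list gives read counts, so the depth behind each peak is unknown.

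lin-4, the founding member of the microRNA class, lies on chromosome II at 5902254 to 5902347 on the plus strand (WBGene00002993), inside the protein-coding gene F59G1.4, which runs on the same strand. Both of its thresholded summits lay upstream of the hairpin. The farther one, at II:5899257 in a peak of 219 bp, was 2997 bp upstream and within an intron of the host gene, 3087 bp downstream of the nearest annotated start of that gene. Its pooled signal was 133.0, rank 552, and its rank was 1016 in replicate 1 (signal 46.5) and 398 in replicate 2 (signal 87.6). The nearer one, at II:5901875 in a peak of 246 bp, was 379 bp upstream, in an intron of F59G1.4 that also holds an exon of F59G1.12, a noncoding RNA of the other strand. This summit was also 1606 bp upstream of another annotated start of F59G1.4, so host and microRNA cannot be told apart as its target. Its pooled signal was 86.4, rank 1352, with rank 968 in replicate 1 (signal 47.5) and 1680 in replicate 2 (signal 45.1). The order of the 2 lin-4 summits thus differed between the replicates: the near one ranked slightly higher in replicate 1, and the far one much higher in replicate 2. The next thresholded summit lay 16035 bp from the hairpin.

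let-7, on chromosome X at 14744173 to 14744271 on the minus strand (WBGene00002285), is one of 7 miRNA genes for which the annotation gives longer primary transcripts. Its 3 primary transcripts start at 14744296, 14744480 and 14745321 and all end at 14743590, past the hairpin. The strongest summit, at X:14747175, lay 2904 bp upstream of the hairpin and had a pooled signal of 150.7, rank 414, the best rank of the 11. Its rank was 467 in replicate 1 (signal 66.0) and 406 in replicate 2 (signal 87.2), the closest match between replicates among the let-7 summits. This intergenic summit is 128 bp upstream of the start of wshc-2, a coding gene of the opposite strand, so the 2 genes cannot be told apart as its target.

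The next let-7 summit, at X:14745440 in a peak of 289 bp, lay 1169 bp upstream of the hairpin and 119 bp upstream of the start of the longest primary transcript. This summit was also 1660 bp upstream of the nearest coding start, that of C05G5.7, so the 2 genes cannot be told apart as its target. Its pooled signal was 133.2, rank 549, with rank 312 in replicate 1 (signal 79.2) and 1057 in replicate 2 (signal 57.2). The last summit, at X:14743474, lay on the other side, 699 bp past the hairpin and 116 bp beyond the end of the primary transcripts. The start of the coding gene C05G5.7 is 306 bp from it, nearer than the hairpin. It was weak, with a pooled signal of 45.5 and rank 3576, and it ranked 2528 in replicate 1 (signal 28.6) but 9208 in replicate 2 (signal 10.5). It was thus the only one of the 11 that lay outside the 4944 strongest peaks of replicate 2.

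mir-48 and mir-241 sit 1678 bp apart on the minus strand of chromosome V, at 14364412 to 14364509 (WBGene00003039) and 14366188 to 14366283 (WBGene00003335), with mir-241 upstream. Their 4 thresholded summits lay on both sides of mir-241, and all 4 were upstream of mir-48. The strongest, at V:14366727 in a peak of 213 bp, was 444 bp upstream of mir-241 and 2218 bp upstream of mir-48, in an exon of the plus-strand noncoding RNA F56A12.8. Its pooled signal was 139.6, rank 497, with rank 302 in replicate 1 (signal 80.2) and 744 in replicate 2 (signal 67.2). The summit at V:14368481 was 2198 bp upstream of mir-241 and 3972 bp upstream of mir-48, with a pooled signal of 133.8, rank 538. It ranked 965 in replicate 1 (signal 47.6) and 404 in replicate 2 (signal 87.3), so the replicates disagreed on which of these strong summits was first.

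The other 2 summits of the locus were weak and intergenic. The one at V:14367315, 1032 bp upstream of mir-241, had a pooled signal of 39.5, rank 4236; replicate 2 held it at rank 2971 (signal 31.1), and replicate 1 had no peak over it, its nearest summit being 362 bp away. It was the only one of the 11 without a peak in both replicate lists. The one at V:14364703, 194 bp upstream of mir-48 and 1485 bp past the mir-241 hairpin, had a pooled signal of 39.2, rank 4270. It ranked 3830 in replicate 1 (signal 21.5), whose summit lay 130 bp away, and 2408 in replicate 2 (signal 36.1). The nearest hairpin to a summit among the 5 genes, that of mir-48, therefore had a weak peak beside it, and its strong summits were the ones beside or beyond mir-241. The nearest coding start to the summit at V:14368481, that of unc-39, was 4593 bp away.

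mir-84, on chromosome X at 16022404 to 16022478 on the minus strand (WBGene00003312), had 2 intergenic summits, both upstream and both in the lower part of the thresholded list. The one at X:16024854, in a peak of 87 bp, was 2376 bp upstream, with a pooled signal of 57.0, rank 2691. It ranked 1362 in replicate 1 (signal 40.4) and 4657 in replicate 2 (signal 21.6). The one at X:16023033 was 555 bp upstream, with a pooled signal of 42.1, rank 3951, and ranked 3893 in replicate 1 (signal 21.2) and 3981 in replicate 2 (signal 24.8). As at lin-4, the order of the 2 summits differed between replicates. A further thresholded summit lay just outside the window, 5082 bp from the hairpin at rank 4344, whereas the next summit was 7033 bp away for let-7 and 8457 bp or more for the other 3 genes.

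**Figure D1:**
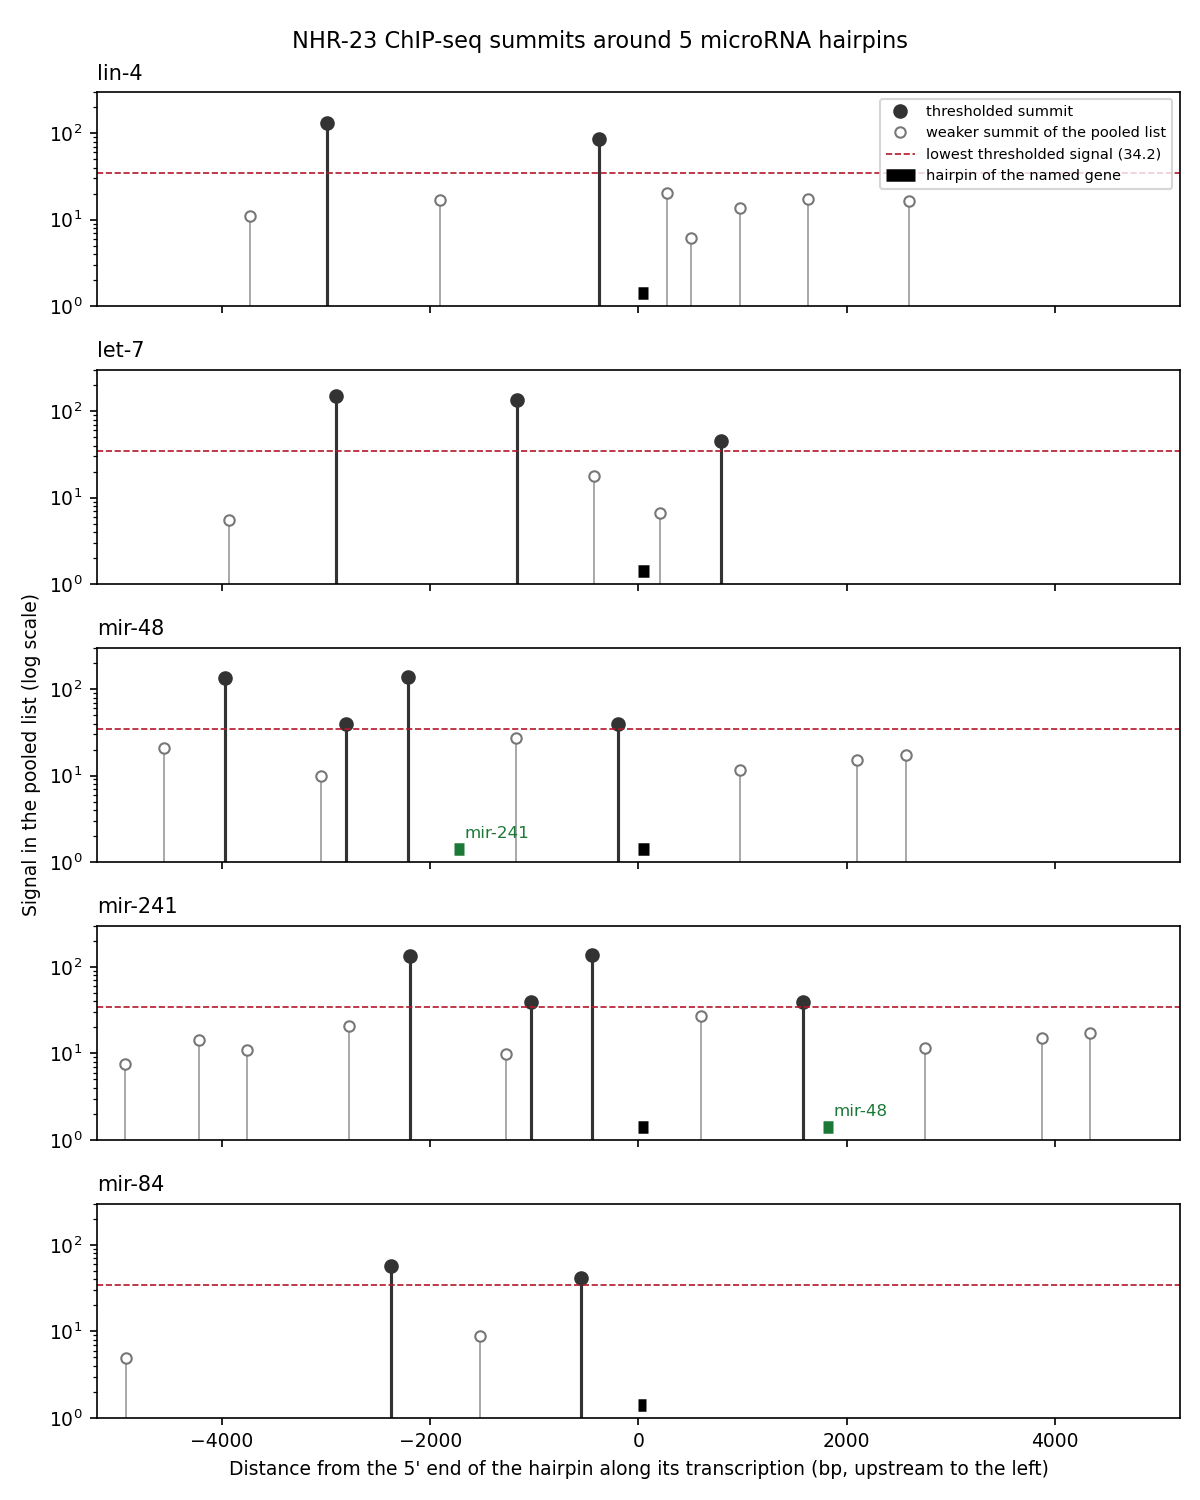
Summits of the authors' pooled list around each hairpin: distance from the hairpin's 5′ end along transcription in bp (x axis, upstream to the left) against the pooled signal on a log scale (y axis). Filled points are thresholded summits, open points are weaker ones and the dashed line is the lowest thresholded signal, 34.2; the filled points lie mostly left of the hairpin, and those of mir-48 and mir-241 are the same 4 summits.

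Set side by side, lin-4, let-7 and the mir-48 and mir-241 locus each had a summit of signal 133.0 or more, and mir-84 had none above 57.0. The best pooled ranks were 552 for lin-4, 414 for let-7, 497 for mir-48 and mir-241, and 2691 for mir-84. In replicate 1 the best ranks were 968 for lin-4, 312 for let-7, 302 for mir-48 and mir-241, and 1362 for mir-84. In replicate 2 they were 398, 406 and 404 for the same first 3 loci and 3981 for mir-84. The order among the first 3 loci changed between replicates and was not resolved, while mir-84 was last in both. Over the 11 summits the median pooled rank was 1352 and the median signal 86.4, and 6 of them were among the 2472 strongest.

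Recurrence was read from each replicate's own list. Of the 11 summits, 10 had a peak over them in both full replicate lists, against 96.5% of all thresholded summits, a criterion that nearly every peak meets. Under the stricter criterion of a peak among the 4944 strongest of both replicates, 9 of the 11 passed, against 3332 of all 4944 (67.4%). The 2 that failed were the let-7 summit past the hairpin and the summit 1032 bp upstream of mir-241, so each gene kept at least 2 summits under it.

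**Figure D2:**
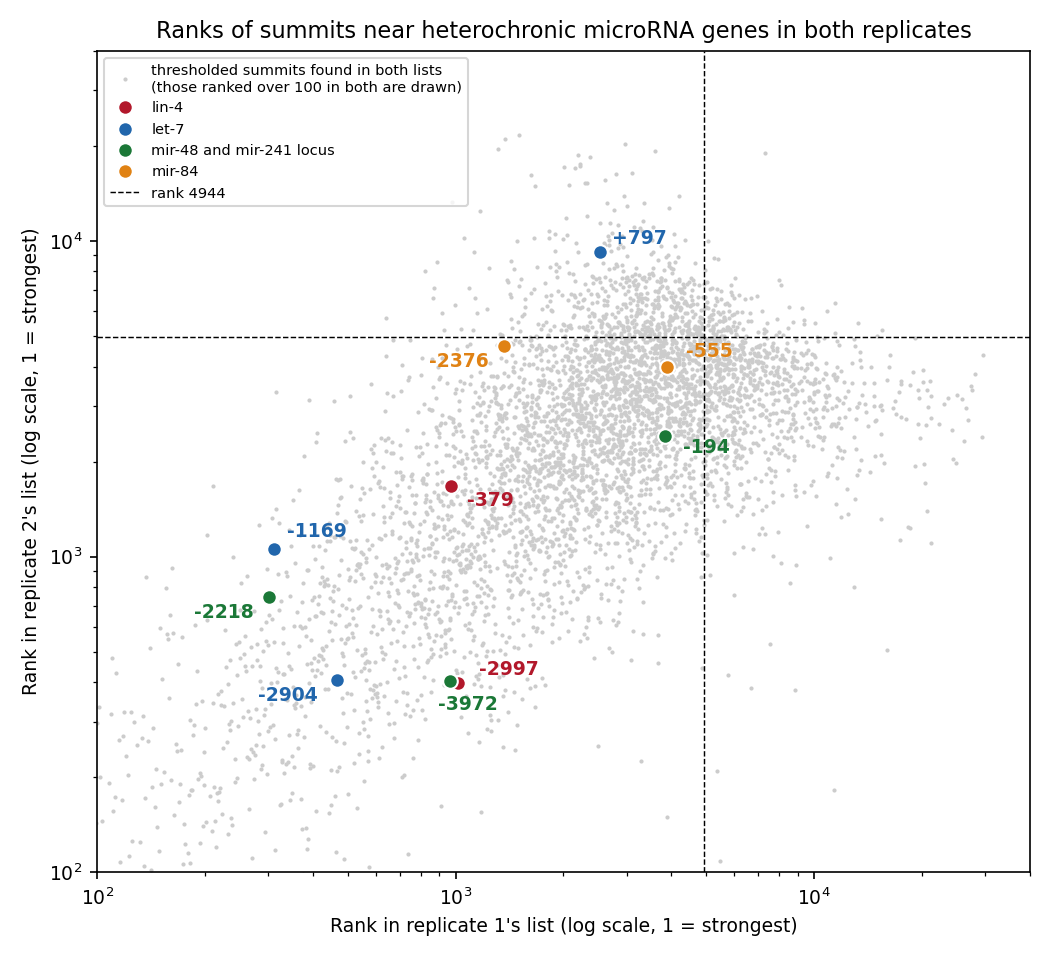
Rank of each summit in replicate 1's list (x axis) and replicate 2's list (y axis), both on log scales with 1 the strongest; grey points are all thresholded summits found in both lists and ranked over 100 in both, and labels give the position in bp from the hairpin's 5′ end (from that of mir-48 for the shared locus). The strong summits of lin-4, let-7 and the shared locus sit at the lower left, and the dashed lines mark rank 4944; the summit without a peak in replicate 1 is not drawn.

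The summits lay mainly before the hairpins. Of the 15 pairs of a gene and a summit, 13 (86.7%) were upstream, against 138 of 208 pairs (66.3%) of the other miRNA genes. The 2 downstream pairs were the let-7 summit past the primary transcripts and the summit between mir-241 and mir-48, which is upstream of the mir-48 hairpin. A summit near several genes enters the pairs with each of them, as at mir-48 and mir-241 and at clusters among the other genes. The pairs are therefore not independent. Of the 11 distinct summits, 10 lay upstream of a heterochronic microRNA gene. The share per distinct summit was not determined for the other miRNA genes. Of the 11 summits, 8 were intergenic, but the same share over all thresholded summits was not determined, so this count has no background. In 4 of the 11, the peak had the width of 324 bp that is commonest in the thresholded list, where 2909 peaks have it.

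Beside the other miRNA genes, the 5 genes had more and nearer summits. At least 3 summits were found at 3 of the 5 genes and at 22 of the 256 others, and the median number was 3 against 0. The median distance to the nearest summit was 444 bp, with a range of 194 to 699 bp over the 5 genes, against 6339.5 bp with a range of 0 to 229982 bp over the others. Both ends of the range of the 5 genes moved with a replicate left out: let-7, at 699 bp, was 1208 bp from its nearest summit without replicate 1, and mir-48, at 194 bp, was 64 bp from it without replicate 2. Of the others, 46 (18.0%) had a summit within 699 bp, a limit that rests on the let-7 summit past the hairpin. This limit is the largest distance among the 5 genes, so all 5 meet it by definition. The best summit was among the 2472 strongest peaks at 4 of the 5 genes (80.0%), all but mir-84, and at 83 of the others (32.4%). The 45.7% of other miRNA genes with a summit has a 95% Wilson interval of 39.7 to 51.8%, which covers counting error only. On chromosome X, which carries let-7 and mir-84, 31 of 72 other miRNA genes (43.1%) had a summit. With 5 genes at 4 loci, chosen for their shared role and with earlier results of these data known, these counts are a description without a test.

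**Figure D3:**
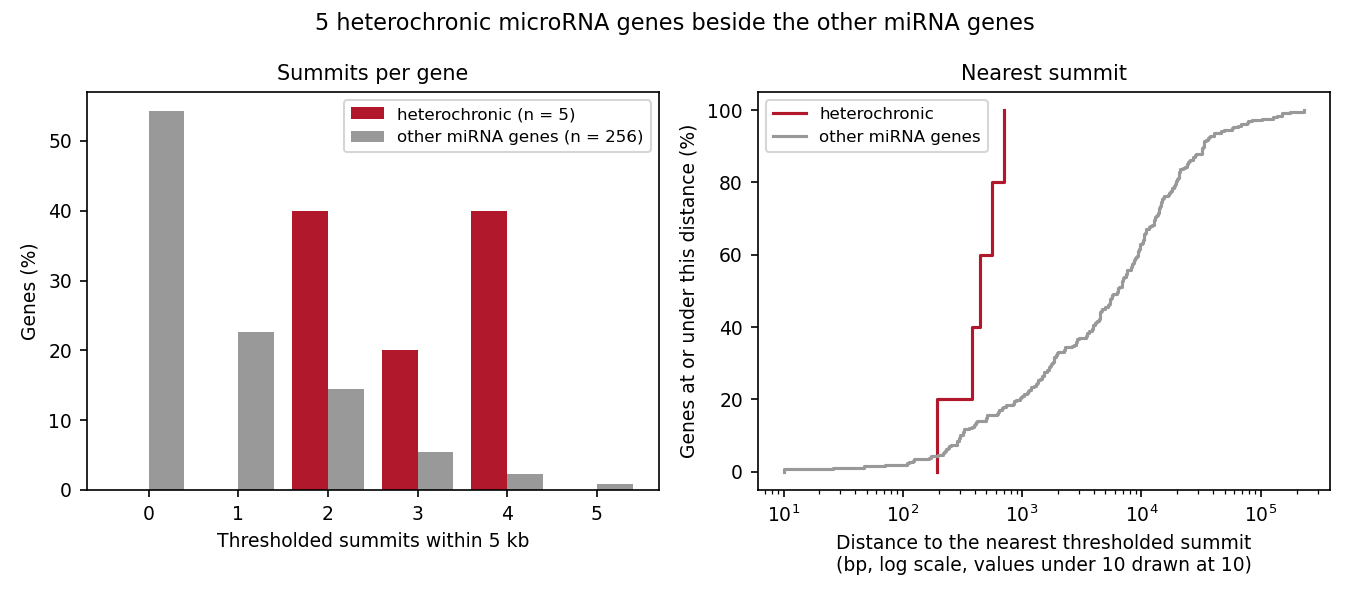
Left, the percent of genes (y axis) with each number of thresholded summits within 5 kb (x axis), for the 5 heterochronic microRNA genes and the 256 others. Right, the percent of genes whose nearest thresholded summit lies at or under a distance in bp (x axis, log scale); the 5 genes end at 699 bp, where 18.0% of the others have been reached.

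The other miRNA genes with the same seeds had fewer or weaker summits. mir-237, which has the seed of lin-4 and lies on chromosome X, had 2 thresholded summits, as many as lin-4. The nearest was 253 bp away, against 379 bp for lin-4, but its best rank was 3952, against 552 for lin-4. Below the threshold, mir-237 had 7 summits of the pooled list within 5 kb, also as many as lin-4. mir-795, which has the let-7 seed, had no thresholded summit within 5 kb and none nearer than 18136 bp, and no weaker summit of the pooled list in that window. Of the 8 other miRNA genes with at least 4 summits, mir-243 on chromosome IV and mir-71 on chromosome I had 5 each. Each of the remaining ones had 4. They were mir-54, mir-55 and mir-56 of 1 cluster on chromosome X, F09A5.15, mir-58.1 on chromosome IV and mir-8188 on chromosome II. F09A5.15 lies within the mir-55 hairpin on the other strand, and it shares its best summit with the cluster. The best ranks were 120 for mir-243, at 4874 bp upstream, 588 for mir-71, at 1354 bp upstream, 354 for the cluster and F09A5.15, 415 for mir-58.1 and 1820 for mir-8188. mir-243 lies inside the protein-coding gene R08C7.12, mir-71 inside ppfr-1 and mir-54, mir-55 and mir-56 inside F09A5.3, while mir-8188 lies in no protein-coding gene.

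Below the threshold, the pooled list held 21 further distinct summits within 5 kb of the 5 genes. The counts were 7 for lin-4, 3 for let-7, 6 for mir-48, 9 for mir-241 and 2 for mir-84, with a median of 6 against 2 for the other miRNA genes. Of the 21, 10 had a peak over them in both replicate lists and 2 in neither. The same shares over all 25056 pooled peaks below the threshold were not determined. The strongest of the 21 lay between mir-241 and mir-48, 597 bp downstream of the start of the mir-241 hairpin and 1177 bp upstream of mir-48, with a pooled signal of 27.5, rank 6220. It ranked 3141 in replicate 1 (signal 24.7) and 11376 in replicate 2 (signal 8.10), so it was well inside the strongest peaks of one replicate alone. At let-7, a weak summit at X:14744701 lay inside the longest primary transcript, 430 bp upstream of the hairpin and 221 bp upstream of the start of the middle transcript. Its pooled signal was 17.8, rank 9486, with rank 7444 in replicate 1 (signal 13.0) and 14208 in replicate 2 (signal 6.12).

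At lin-4, 5 of the 7 weaker summits lay downstream of the hairpin's start, the side without a thresholded summit. The strongest of these, 274 bp downstream, had a pooled signal of 20.3, rank 8353, and a peak in replicate 2 only (rank 5076, signal 19.9). That replicate 2 peak also covered the weaker summit 503 bp downstream. mir-84 had the fewest weaker summits: one 1521 bp upstream, at rank 18587 with a peak in replicate 1 only, and one 4925 bp upstream, at rank 29524 with a peak in neither replicate. In the full replicate lists, counts within 5 kb were 7 and 11 for lin-4, 4 and 7 for let-7, 12 and 12 for mir-48, 14 and 15 for mir-241 and 3 and 7 for mir-84, in replicates 1 and 2. The medians over the other miRNA genes were 3 in replicate 1 and 3 in replicate 2. The full lists also hold the strong peaks, so these counts are not of weaker summits alone.

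Returning to the sequences above, a nuclear receptor hexamer lay within 50 bp of 3 of the 11 summits (27.3%), against 542 of all 4944 thresholded summits (11.0%). At let-7 the AGGTCA began 30 bases downstream of the summit that precedes the longest primary transcript. At mir-84 it began 28 bases downstream of the summit 555 bp before the hairpin. At mir-241 it lay 9 to 14 bases downstream of the summit 1032 bp before the hairpin, on the other strand. The mir-241 and mir-84 summits with a hexamer were weak ones, at ranks 4236 and 3951, and of the 5 summits with a pooled signal of 133.0 or more only that of let-7 held one. Within 100 bp the count was still 3 of 11, against 19.1% of all summits. The hexamers' bases in reverse order, ACTGGA or ACTGGG, were within 50 bp of 0 of the 11 and of 270 of all summits (5.46%).

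The shorter core GGTCA was searched after the sequences had been seen. It was within 100 bp of 4 of the 11 (36.4%), against 32.0% of all summits, the added one being the far summit of lin-4. That summit had 2 cores on the same strand, at 94 to 90 bases before it and 86 to 90 bases after it, and the mir-84 summit 555 bp upstream also had 2. At least 2 cores, counted on either strand, occurred within 100 bp of 2 of the 11 (18.2%) and of 6.47% of all summits. GAGAGA, a GA repeat, was within 50 bp of 5 of the 11 (45.5%), against 1309 of all summits (26.5%), and within 100 bp of 8 of the 11 (72.7%), against 39.6%. The 5 were at lin-4 (2997 bp upstream), let-7 (1169 bp upstream), both outer summits of the mir-48 and mir-241 locus, and mir-84 (555 bp upstream). The let-7 summit before the longest primary transcript and the mir-84 summit 555 bp upstream were those with both a hexamer and GAGAGA within 50 bp. A match says only that the letters are present, and the cores overlap the hexamers that contain them.

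**Figure D4:**
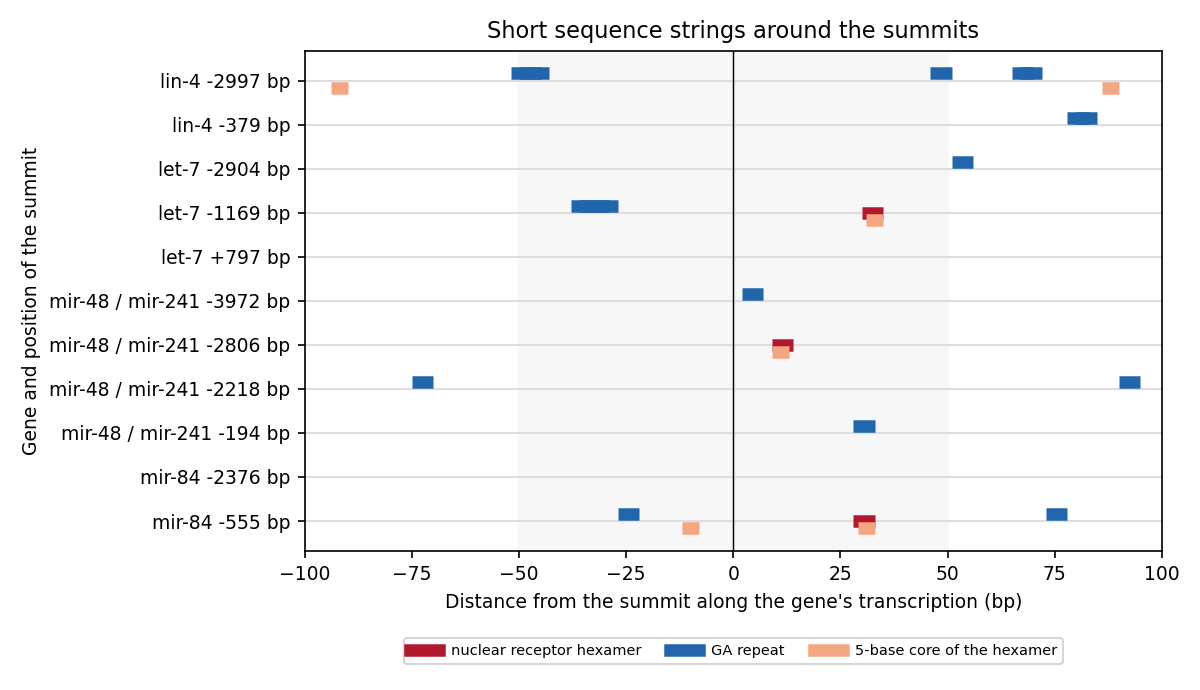
Matches to the nuclear receptor hexamers, their core GGTCA and GAGAGA within 100 bp of each of the 11 summits: distance from the summit along the gene's transcription in bp (x axis) for each summit (y axis), with the 50 bp window shaded. Red marks the hexamers, at 3 summits, and blue the GA repeats, at 5 summits inside the shaded window; the summit at +797 bp of let-7 and that at −2376 bp of mir-84 have none of these.

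The protein-coding genes of the pathway, among them the messages these microRNAs repress, were read with a promoter window of 1500 bp upstream to 500 bp downstream of an annotated transcript start. Of 14 such genes, 9 (64.3%) had a thresholded summit there, against 3877 of 19973 protein-coding genes (19.4%). The list, which includes nhr-23 itself, was chosen with earlier results of these data known, so this contrast is a description without a test. Both targets of lin-4 had a summit in the window: lin-28, which encodes an RNA-binding protein, at rank 239 and 24 bp upstream of its start, and lin-14, which encodes a transcription factor, at rank 905 and 159 bp upstream. hbl-1, the transcription factor gene that mir-48, mir-84 and mir-241 act on, had a summit 1320 bp upstream at rank 1931. lin-41, the RNA-binding protein gene repressed by let-7, had one 1434 bp upstream at rank 4151. Regulators of these microRNAs were split: daf-12, whose nuclear receptor product regulates let-7 family transcription, had a summit 123 bp upstream at rank 3245, and nhr-85 one 925 bp upstream at rank 1221. lin-42, the period homologue, had one 1189 bp upstream at rank 1345. blmp-1, a transcription factor gene, had none in the window, with the nearest summit 1659 bp away. nhr-23 itself had no thresholded summit nearer than 64528 bp. The strain's insertion wgIs43 is listed for this gene, and its effect on peak calls there was not tested, so the absence is not read as lack of binding. lin-29, which acts last in the pathway, had its nearest thresholded summit at 6363 bp.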

How the data were processed

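The authors deposited peak lists for each replicate, for both replicates pooled, and a thresholded list that they derived from these by an irreproducible discovery rate procedure, per the deposited text files. The deposited signal is on the scale of their peak caller; the aligner, caller, threshold and software versions were not given in the sources used here. The 5 genes and the lists were chosen with earlier results of these data known. From the ce11 lists, summits were placed on Ensembl release 115 (WBcel235) and counted within 5 kb of the hairpins, matching gene IDs to RefSeq symbols. Chromosome names and lengths of the RefSeq and Ensembl genomes were compared first. Named genes were the 5, hosts and neighbours of their summits, miRNA genes with the same seed, the 5 others with the most summits, ties broken by best rank, and both fixed lists; 3 more with 4 summits were added after their values were seen. Alternatives were the window, interval or 5′ end, stricter lists, single replicates, other comparison genes and other motif settings. Python 3.11.15, numpy 2.4.6, pandas 2.3.3 and matplotlib 3.10.9 were used, and functions were tested on simulated data. The q-values and ce10 lists were not used.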

Additional observations from a re-analysis of the deposited data

How the results depend on the processing

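All 5 genes had a summit under each alternative tried except with the 2472 strongest peaks alone, where 4 did and mir-84 had none nearer than 34120 bp. The share of other miRNA genes with a summit, 45.7%, moved to 32.8% within 2 kb, 62.9% within 10 kb, 32.4% with the 2472 strongest peaks, 34.0% counting upstream summits and 37.1% with summits among the strongest of both replicates; the last 2 were chosen after seeing the data. It was 43.0 to 47.3% in the others, including 43.1% on chromosome X, also chosen after seeing the data. The 11 summits became 7 within 2 kb and 6 with the 2472 strongest peaks, and 9 to 15 otherwise. With these strongest peaks the median nearest distance was 1169 bp against 10727.5 bp for the other miRNA genes. With a replicate left out, that is with the 4944 strongest peaks of the remaining one, it was 416 to 442 bp against 5622.5 to 6504.5 bp, the number of summits 10 to 13 and the share of other genes 44.5 to 47.3%. Other miRNA genes outside protein-coding genes had a median distance of 7426 bp. With the hexamers' bases reversed, the count of 3 summits became 0, against 5.46% of all summits. At so low a share, a count of 0 among 11 is unremarkable. Of 44 values for single genes, 16 were classed as moved and 28 as the same. Some classed as moved changed by less than the difference between the replicates. The best rank of lin-4, for example, went from 552 to 968 without replicate 2, and was 398 without replicate 1. The ce10 lists were not run on this annotation. No paired analysis was possible because the 2 replicates form 1 group. The lists give no depth, no control was analysed, and a summit near 2 genes is not assigned to either.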

Other observations

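The genes that make microRNAs and act with them, another list, were read in the same promoter window. Of 9 such genes, 7 (77.8%) had a thresholded summit, against 19.4% of protein-coding genes. As this list too was chosen with earlier results of these data known, the contrast is a description without a test. The strongest summit was that of nhl-2, a cofactor of the microRNA silencing complex, at rank 19 and 858 bp upstream of its start. xrn-2, an exonuclease that degrades mature microRNAs in C. elegans, had a summit 1222 bp upstream at rank 254. Of the GW182 genes, whose products join Argonaute in silencing, ain-1 had a summit 995 bp upstream at rank 381 and ain-2 one 307 bp downstream at rank 2088. alg-1, one of the 2 main microRNA Argonautes, had one 424 bp upstream at rank 914, while alg-2, the other, had none nearer than 24459 bp. Of the nuclear processing pair, pash-1 had a summit 77 bp upstream at rank 1089 and drsh-1 one 278 bp downstream at rank 3851. dcr-1, which cuts the hairpin in the cytoplasm, had none in the window, with the nearest summit 5261 bp away.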
